A study of Mus musculus with 386 samples.

Results

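Small nucleolar RNAs (snoRNAs) are short non-coding RNAs of the nucleolus, and the genes described here are the 56 genes, of 18820 genes with a single symbol on the array, whose symbol starts with Snord or Snora followed by a digit. The symbols Snord mark the box C/D family, which had 30 genes, and the symbols Snora mark the box H/ACA family, which had 26 genes. The choice is by name, and for the 7 members whose symbol several transcript clusters carried, the cluster with the highest mean was used. The annotated genes were 53 to 205 nucleotides long, and 55 of the 56 lay within the bounds of another annotated gene, the exception being Snord118. Another 13 transcript clusters that name a snoRNA together with other symbols were not used.

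Box C/D snoRNAs pair with ribosomal RNA and guide 2'-O-methylation by the enzyme fibrillarin. Box H/ACA snoRNAs guide the conversion of uridine to pseudouridine by dyskerin. In mammals most are cut out of the introns of host genes, many of which encode ribosomal proteins or translation factors while others, such as the Snhg genes and Gas5, make spliced RNAs that code for no protein. A few snoRNAs, among them the U17 pair Snora73a and Snora73b, the U14 RNAs (Snord14e) and U8 (Snord118), act in the cleavage and maturation of the ribosomal RNA precursor. Some box C/D families, in clusters on mouse chromosomes 7 and 12, are imprinted, which means that only the copy from the father or only the copy from the mother is transcribed.

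The series measured total RNA of brain, kidney, liver and lung from 111 mice aged 23 days on Affymetrix Mouse Gene 1.1 ST arrays. The mice were inbred CAST, PWK and WSB animals, descended within a few generations from Jackson Laboratory founders, and the 6 reciprocal F1 crosses between these strains, named with the dam first, so that CASTxPWK has a CAST mother. No treatment or engineered allele is given for any group, and each group held females and males. There were 85 brain, 102 kidney, 101 liver and 98 lung arrays, with 6 to 13 arrays per cross and tissue, and 67 animals gave all 4 tissues. The deposited values are log2 signals, one per transcript cluster, in which a difference of 1 is a 2-fold change in signal.

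The array medians over all clusters lay between 5.89 and 6.36. Marker genes matched the tissue labels, with 6 of 6 neuron markers highest in brain, 6 of 6 kidney tubule markers in kidney, 6 of 6 lung epithelial markers in lung and 5 of 5 hepatocyte markers in liver. Markers of other tissues also appeared in the dissections: lung was the highest tissue for 4 of 4 markers of heart muscle, and kidney for 3 of 4 of brown fat. On 2 arrays sex-linked genes went against the labelled sex: on PWKxCAST brain replicate 9, labelled female, Xist was low (3.98) while the Y-linked Eif2s3y (3.83) was low as in other females, and on PWKxWSB liver replicate 8, labelled male, both went against the label, with Xist at 10.70 and Eif2s3y at 4.53. Without these 2 arrays the members' counts were 22 between inbred strains and 6 against mid-parent in brain, and 38 and 4 in liver. With them, these counts were 23 and 7 in brain, and 37 and 4 in liver. In tissue RNA, fewer cells of a type and less RNA per cell cannot be told apart.

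No member lay inside either imprinted cluster. In the RefSeq gene table, 18 snoRNA genes (Snord116 copies and Snord64) lie in the Snrpn to Ube3a interval of chromosome 7, and none of these is among the 56. The other members are spread over many autosomes, and Snora69, Snora70 and Snord61 are on the X chromosome.

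The host genes of the members are the base of several results, and the starts of 3 non-coding hosts are shown. Snhg12 holds Snora16a, Snora44 and Snora61 and Snhg3 holds Snora73a and Snora73b, which are described with their values later. Snhg1, shown as a further non-coding host, holds Snord22, which was below the filter in all 4 tissues, with a highest tissue mean of 5.69 in kidney. Each sequence is 60 bases of RefSeq sequence from GRCm38.p6, read 5' to 3' on the gene's own strand, with 20 bases before the annotated start and 40 from it. Capitals mark the first annotated base and the unbroken C and T bases that follow where that base is itself C or T. The Snhg12 window is chr4:132308658-132308717 on the plus strand, the Snhg3 window chr4:132353647-132353706 on the minus strand and the Snhg1 window chr19:8723467-8723526 on the plus strand.
Snhg12: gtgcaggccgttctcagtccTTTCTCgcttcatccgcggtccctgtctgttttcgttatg
Snhg3: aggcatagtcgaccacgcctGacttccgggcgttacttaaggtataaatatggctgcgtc
Snhg1: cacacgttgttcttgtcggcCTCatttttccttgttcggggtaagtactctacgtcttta

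Snhg12 starts with 6 C or T bases in a row, Snhg1 with 3 and Snhg3 with 0. A start made of C and T bases is the textbook feature of ribosomal protein genes and of several snoRNA hosts. Of the 44 host genes, 34 had a window, and 8 of these (23.5%) began with at least 5 C or T bases, searched on the gene's own strand only. Over all 27025 genes with a window the share was 5.28%. The 8 hosts carry 11 members. A match in these letters is a description of the annotated start and of nothing else.

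The levels of the 56 members were low on this array. Their median level was 5.54 in brain, 5.69 in kidney, 6.01 in lung and 6.03 in liver, against 7.40, 7.35, 7.38 and 6.91 for all genes. Genes were tested in a tissue when their mean signal reached the 40th percentile of all genes, which kept 11292 genes. Of the 56 members, 21 passed in brain, 24 in kidney, 25 in lung and 29 in liver. In all 4 tissues 21 passed, and 26 passed in none. The tests cover the members that passed, and the remaining members are described by their levels and spread only.

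Liver was the tissue where most members had their highest level. Of the 56, 37 (66.1%) were highest in liver, 11 (19.6%) in lung, 7 (12.5%) in kidney and 1 (1.79%) in brain. Over all genes 35.8% were highest in liver, 23.1% in lung, 16.0% in kidney and 25.1% in brain. Brain was the lowest tissue for 26 members (46.4%) and lung for 21 (37.5%), against 33.4% and 31.0% of all genes. These ranks are counts over members that share arrays and carry no test.

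For 24 members the tissue means could be tested, as a tissue minus the mean of the 3 others, in a model of the 36 cross-by-tissue means. A member was called when the Benjamini-Hochberg adjusted p from limma was under 0.05 and the difference was at least 1 log2 unit. In liver 23 of 24 members were above the other tissues with a median difference of 0.66, against -0.10 for all genes tested, and 7 were called higher and 1 lower, where 12.8% of all genes were called higher and 22.3% lower. In kidney 18 of 24 were above with a median of 0.36, against 0.05 for all genes, and 1 was called higher and 0 lower, against 12.4% and 10.1%. In brain 2 of 24 were above, the median was -0.60, against -0.17 for all genes, and 1 was called higher and 1 lower, against 16.7% and 22.8%. In lung 5 of 24 were above, the median was -0.65, against 0.05 for all genes, and 0 were called higher and 3 lower, against 17.1% and 12.5%.

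The size of these differences depends on the scale of the arrays. When each array was centred on the median of all genes, the liver differences moved up by 0.449 and those of the other tissues moved down by 0.112 to 0.176. The calls were then 15 higher and 0 lower in liver, 0 and 10 in lung, 1 and 7 in brain, and 0 and 0 in kidney. Signs of 4 differences turned with this centring: Snord49b in brain, Snora52 and Snord57 in kidney and Snora28 in lung.

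Snora52, a box H/ACA RNA in an intron of the ribosomal protein gene Rplp2, was the member with the largest called rise in liver. Its signal in liver ran from 9.81 through a median of 10.28 to 11.04. In brain it ran from 7.44 through 8.38 to 9.35, in kidney from 8.08 through 9.04 to 10.69, and in lung from 7.63 through 8.22 to 8.90. The liver arrays lay above every brain and lung array, while liver and kidney overlapped through the highest kidney arrays. The liver difference of Snora52 from the other tissues was 1.78. Snora20 was below the filter between tissues and could not be called, and its liver difference in a fit without a filter was 1.91.

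Snord73b, a box C/D RNA in the ribosomal protein gene Rps3a1, rose by 1.60 in liver and fell by 1.45 in brain. Its lowest, median and highest signals were 4.90, 5.93 and 8.03 in brain, and 6.67, 8.40 and 9.98 in liver, so that the ranges of brain and liver overlapped. Snord35a, in Rpl13a, rose by 1.56 in liver and fell by 1.31 in lung. Snord82, in the nucleolin gene Ncl, was 1.36 higher in liver, Snora44 was 1.28 higher, Snord53 was 1.27 higher and Snord15b was 1.04 higher. Snord35b, a box C/D RNA, was the member called higher in kidney, by 1.09.

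Snord42b, a box C/D RNA in the ribosomal protein gene Rpl23a, went the other way. Its lowest, median and highest signals were 8.08, 8.50 and 9.05 in brain, 7.23, 7.97 and 8.74 in lung, 5.93, 7.18 and 7.88 in kidney, and 5.29, 6.50 and 7.59 in liver. All brain arrays were above all kidney and liver arrays, and neighbouring tissues in this order overlapped. It was the single member called higher in brain, by 1.29, and the single member called lower in liver, where it fell by 1.39. The host Rpl23a differed by -0.34 in brain and 0.09 in liver.

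**Figure D1:**
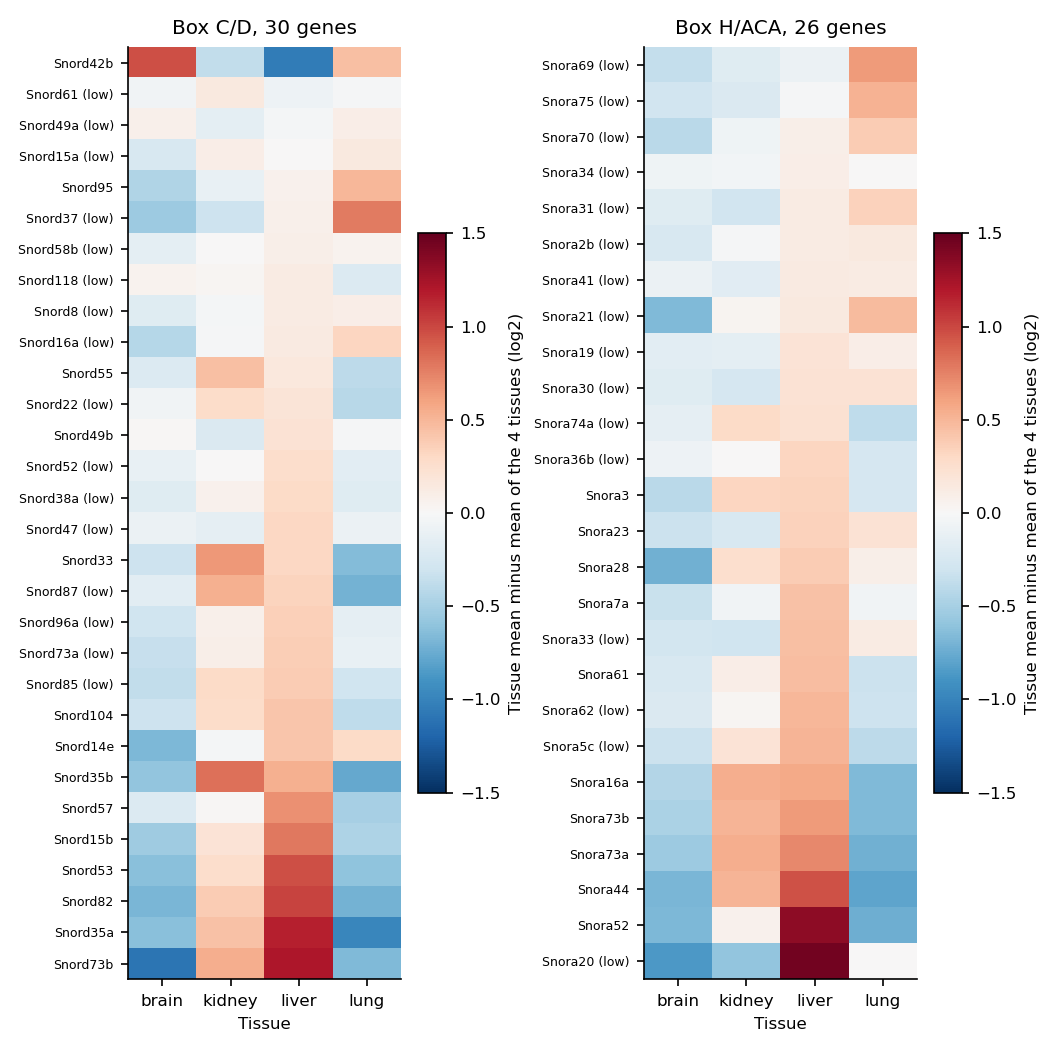
Level of each member in each tissue as the tissue mean minus the mean of the 4 tissues (log2), with the 30 box C/D and 26 box H/ACA genes in separate panels and members below the filter between tissues marked as low. Most rows are highest in the liver column, and Snord42b is high in brain and low in liver.

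The host genes were set beside the members. For the 34 members with a measured host, the member's and host's difference had the same sign for 25 in brain, 17 in kidney, 13 in lung and 19 in liver. The median member difference in this set was 0.42 in liver and -0.41 in brain, and the median host difference was 0.07 and -0.21. Within cross and sex groups, the median correlation of a member with its host across arrays was 0.01 in brain, 0.06 in kidney and 0.11 in liver, with 0.08 in lung, given as a description.

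The proteins that bind and build snoRNAs were taken from lists. The box C/D core proteins Fbl, Nop56, Nop58 and Snu13, and the box H/ACA core proteins Dkc1, Gar1, Nhp2 and Nop10, had no tissue difference of 1 log2 unit or more in any tissue. The 2 trimming enzymes Exosc10 and Parn had none either. Of the 9 measured assembly factors, 1 was called lower in liver: Naf1, which loads the H/ACA proteins, had a level of 7.37 in liver and 8.29 to 8.61 in the other tissues.

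The comparison of inbred strains asks how far members differ between the 3 genomes. Sequence differences between the strains under a probe would also change the signal, and their part was not tested. A member was called here when its adjusted p (limma, adjusted over all tested genes of the tissue) was under 0.05. In brain, CAST against PWK gave 2 members higher and 8 lower of 21, where 19.7% of all genes were higher and 21.2% lower. CAST against WSB gave 3 higher and 6 lower, against 26.6% and 25.7%, and PWK against WSB gave 3 and 1, against 21.3% and 19.1%.

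In kidney, CAST against PWK gave 3 higher and 7 lower of 24, against 27.2% and 33.0% of all genes. CAST against WSB gave 3 and 9, against 34.1% and 25.5%, and PWK against WSB gave 3 and 5, against 37.5% and 23.2%. In liver, CAST against PWK gave 0 and 11 of 29, against 23.8% and 26.3%, CAST against WSB gave 2 and 13, against 31.7% and 25.3%, and PWK against WSB gave 5 and 6, against 31.7% and 23.6%. In lung, CAST against PWK gave 5 and 10 of 25, against 33.1% and 29.5%, CAST against WSB gave 4 and 6, against 35.9% and 24.0%, and PWK against WSB gave 6 and 6, against 34.7% and 26.7%. In each tissue more members were lower than higher in CAST, against PWK and against WSB. All genes tested were called higher in CAST than in WSB more often than lower in each tissue. Against PWK, all genes were also more often lower in CAST in brain, kidney and liver, and more often higher in lung. The members' lower counts of 7 of 24 in kidney against PWK and 6 of 25 in lung against WSB were not above the 33.0% and 24.0% of all genes. The 3 contrasts share strains and are not independent of each other. Animals of a cross with neighbouring numbers are called a run here; with the run as a random block, the calls in liver of the 3 contrasts together were 24 in place of 37.

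Snord15b, a box C/D RNA in an intron of the ribosomal protein gene Rps3, had its lowest mean in CAST and its highest in WSB in all 4 tissues. In brain its lowest, median and highest signals were 5.56, 5.66 and 5.95 in CAST, 5.57, 6.09 and 6.31 in PWK, and 6.14, 7.27 and 7.66 in WSB. In liver they were 6.50, 6.97 and 7.31 in CAST, 6.66, 7.40 and 8.06 in PWK, and 7.79, 8.44 and 9.16 in WSB. All CAST arrays lay below all WSB arrays in each of the 4 tissues, and PWK overlapped WSB in brain and liver only.

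The difference of Snord15b between CAST and WSB was -1.45 ± 0.13 (SE, limma adjusted p = 9.64e-16) in brain, -1.35 ± 0.15 (1.54e-13) in kidney and -1.45 ± 0.15 (9.68e-15) in liver, with -1.02 ± 0.09 (1.14e-17) in lung. Its host Rps3 differed by -0.66, -0.52, -0.20 and -0.09 in the same order. Snord15a, which lies in the same host, was below the filter in all 4 tissues, with mean signals of 4.46 to 4.85. Its residuals correlated with those of Snord15b at -0.24 in brain and 0.02 in kidney. The pair is similar in name and length, and whether their probes separate the 2 RNAs is not stated in the files or labels.

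Snora73b, one of the U17 pair in Snhg3, was lower in CAST than in PWK in all 4 tissues. In brain its lowest, median and highest signals were 8.86, 9.23 and 9.58 in CAST, 10.20, 10.60 and 10.95 in PWK, and 8.61, 9.86 and 10.24 in WSB. In liver they were 9.78, 10.46 and 10.89 in CAST and 11.22, 11.32 and 11.81 in PWK. The CAST and PWK arrays did not overlap in brain or liver. The differences between CAST and PWK were -1.30 ± 0.16 (limma adjusted p = 4.42e-10) in brain, -0.94 ± 0.09 (2.74e-16) in kidney and -0.99 ± 0.17 (3.66e-07) in liver, with -0.54 ± 0.17 (0.00452) in lung.

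Snora73a, the near copy of Snora73b, is in the same host. Its differences between CAST and PWK were -0.49 (limma adjusted p = 0.00957) in brain, -0.21 (0.0589) in kidney and -0.38 (0.0383) in liver, with 0.43 (0.0289) in lung. The kidney value was not called, and with runs as a random block the liver and lung values were not called either (0.135 and 0.109). The brain call was lost without PWKxPWK brain replicate 1 (adjusted p = 0.185). The lung call was lost without CASTxCAST lung replicate 2 or PWKxPWK lung replicate 1 or 5 (up to 0.119). The liver call was lost without any 1 of 9 arrays, which were CASTxCAST liver replicates 1, 2, 7 and 9 and PWKxPWK liver replicates 1, 3, 5, 6 and 8 (up to 0.0733). Over arrays within groups the residuals of the pair correlated at 0.91 to 0.95 in the 4 tissues. Because the genes are close copies, signal may be split between them, and the values of each are uncertain on that account.

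Snord42b was lower in CAST than in both other strains in all 4 tissues. Against WSB the differences were -0.50 ± 0.07 (limma adjusted p = 6.1e-09) in brain, -0.75 ± 0.10 (6.76e-11) in kidney and -0.39 ± 0.14 (0.0151) in liver, with -0.68 ± 0.07 (1.19e-14) in lung. Against PWK they were -0.40, -0.52, -0.44 and -0.28 in the same order, and all were called. With the run as a random block the liver differences were not called (0.103 against WSB and 0.0779 against PWK), and both were lost without CASTxCAST liver replicate 2 (0.0789 and 0.0582). In kidney its lowest, median and highest signals were 5.93, 6.85 and 7.01 in CAST and 7.14, 7.50 and 7.88 in WSB, with no overlap.

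Snord33, a box C/D RNA of Rpl13a, was lowest in WSB. In lung its lowest, median and highest signals were 6.98, 7.51 and 7.65 in CAST, 7.16, 7.54 and 7.88 in PWK, and 5.65, 6.21 and 6.49 in WSB. The WSB lung arrays were all below the CAST and PWK lung arrays. The differences in lung were 1.27 ± 0.11 (limma adjusted p = 4.14e-17) for CAST against WSB and 1.45 ± 0.11 (1.66e-21) for PWK against WSB. The host went the opposite way, with Rpl13a differing by -0.68 and -0.41 in those contrasts.

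In brain the same contrasts of Snord33 were 0.67 ± 0.25 (limma adjusted p = 0.0212) and 0.83 ± 0.28 (0.0134), and in kidney both were 0.61. In liver they were 0.25 and 0.29 and were not called (adjusted p = 0.348 and 0.29). The brain call for CAST against WSB was lost without CASTxCAST brain replicate 1 or 2 or WSBxWSB brain replicate 8 or 10, with an adjusted p of up to 0.0996. The brain call for PWK against WSB was lost without PWKxPWK brain replicate 3 or without WSBxWSB brain replicate 10, with an adjusted p of up to 0.0842. The kidney calls were lost with runs as a random block, with adjusted p = 0.0661 and 0.0813.

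Snora52 was higher in CAST than in PWK in 3 tissues. In brain its lowest, median and highest signals were 8.36, 8.61 and 8.78 in CAST, 7.86, 8.05 and 8.49 in PWK, and 7.44, 7.89 and 8.15 in WSB. The difference between CAST and PWK was 0.57 ± 0.12 (limma adjusted p = 4.56e-05) in brain, 0.46 ± 0.15 (0.00496) in kidney and -0.28 ± 0.12 (0.0426) in liver, with 0.43 ± 0.08 (1.21e-06) in lung. The liver call was lost with runs as a random block (0.124) and without any 1 of 8 arrays, which were CASTxCAST liver replicates 2, 3, 4, 6 and 7 and PWKxPWK liver replicates 1, 6 and 9 (up to 0.175). Against WSB the CAST difference of Snora52 was 0.78, 0.33 and 0.38 in brain, kidney and lung, and -0.06 in liver. In kidney WSBxWSB replicate 3 had 10.69 where the next WSB array had 8.90, and without it the difference was 0.49 ± 0.13 (0.00083). The kidney call was lost with runs as a random block (0.208). It was also lost without any 1 of 12 other arrays, which were CASTxCAST kidney replicates 1, 2, 3, 7 and 11 and WSBxWSB kidney replicates 2, 4, 5, 6, 7, 8 and 12 (up to 0.111).

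**Figure D2:**
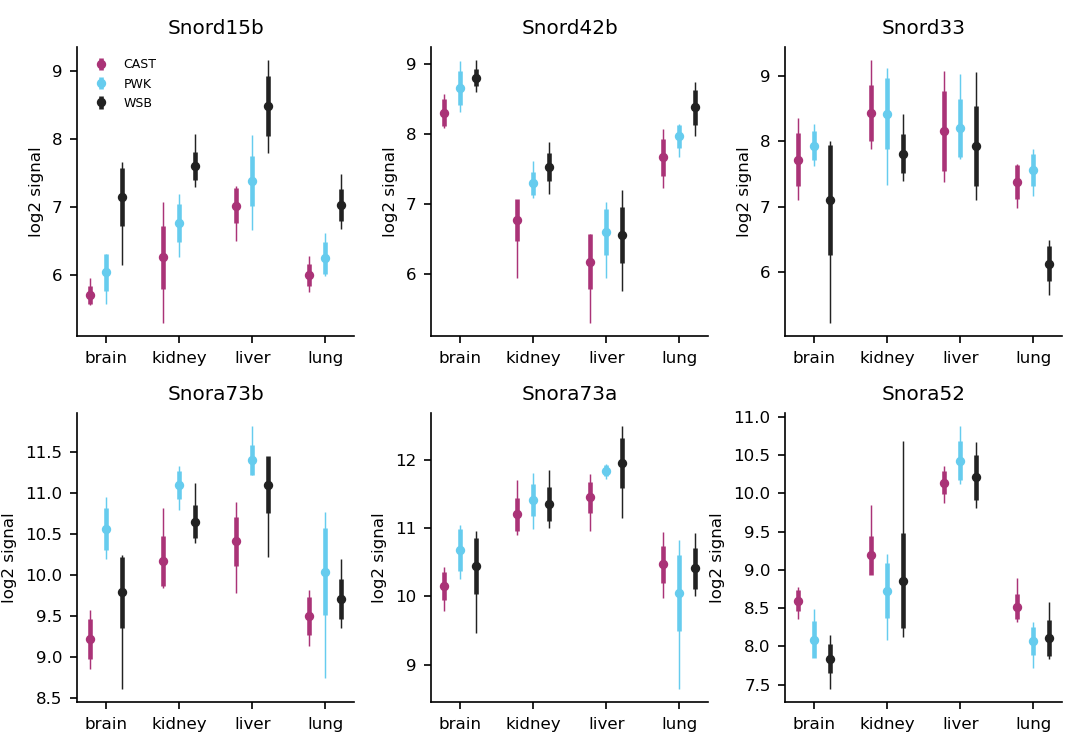
Log2 signals of 6 members in the inbred strains CAST, PWK and WSB for each tissue, with the dot at the mean, the thick bar as SD and the thin line from lowest to highest array. Snord15b has its highest mean in WSB in each tissue, Snord33 is lowest in WSB with the widest gap in lung, and Snora52 is highest in CAST except in liver.

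Several further differences were in liver. Snora20, a box H/ACA RNA of the chaperonin gene Tcp1, had lowest, median and highest liver signals of 4.58, 5.71 and 6.11 in CAST and 5.70, 7.07 and 7.55 in WSB. It was 1.33 ± 0.19 lower in CAST than in WSB by limma, and the host Tcp1 differed by 0.50 in the same contrast, the opposite direction. Snora61, in Snhg12, fell by 1.27 ± 0.15 in CAST against WSB in liver. Snora3, in Rpl27a, fell by 0.83 in CAST against PWK in liver, with signals of 6.92 to 7.48 in CAST and 7.61 to 8.26 in PWK and no overlap.

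Snora62, the E2 RNA in the gene Rpsa, had liver signals of 5.51 to 6.29 in CAST, 6.32 to 6.81 in PWK and 5.13 to 6.35 in WSB. It was higher in PWK than in WSB in liver, by 0.74, and lower in CAST than in PWK, by 0.64. Snord95, in the ribosomal scaffold gene Rack1, was higher in CAST than WSB by 0.63 in kidney, 0.75 in lung and 0.86 in liver. Snord73b was lower in CAST than in WSB, by 1.16 ± 0.21 (limma adjusted p = 1.28e-06) in kidney and 1.05 ± 0.24 (0.000144) in liver. The host of Snord73b, Rps3a1, differed by 0.08 and 0.21 in those contrasts. Snord14e, a U14 RNA in the heat shock gene Hspa8, had differences of -1.04 in liver and -1.14 in lung between CAST and PWK.

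Of the 66 called differences between inbred strains, each a member in 1 contrast and tissue, that had a measured host, the host was called in the same direction for 26, in the opposite direction for 21 and not called for 19. A member can be counted in several of these. Over all genes, 19.7% to 37.5% were called higher and 19.1% to 33.0% lower in these contrasts. Rplp2, the host of Snora52, was below the filter, with means of 4.20 to 4.99, and was counted from the fit without a filter. Whether strain differences depend on the tissue was tested for 21 members with an F-test across the 4 tissues, an alternative chosen after the data had been seen. It called 8 members for CAST against PWK, 8 for CAST against WSB and 6 for PWK against WSB, where 66.6%, 71.7% and 66.5% of all genes were called. The members' share is below that of all genes.

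The genes of the snoRNA proteins were counted in the same contrasts, where over all genes 19.7% to 37.5% were higher and 19.1% to 33.0% lower. Summed over the 12 comparisons of inbred strains, the box H/ACA core proteins were higher in 21 and lower in 5 of 48 tests, and the box C/D core proteins were higher in 9 and lower in 5 of 48. The largest of these were Nop10, at -0.60 between CAST and PWK in brain, and Dkc1, at 0.56 between PWK and WSB in liver. The non-coding host genes on the list, of which 6 of 16 were measured, were higher in 22 and lower in 7 of 48 tests, with Gas5 at 1.09 between CAST and WSB in brain. The same 12 comparisons share strains and are not independent counts.

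The F1 crosses were set against the mean of their parents. In kidney the called members were all above mid-parent, and of the 24 tested members 21, 18 and 22 lay above it for the 3 pairs. For CAST and PWK, 10 of 24 members were higher than the mid-parent mean and 0 lower, where 17.1% of all genes were higher and 16.6% lower. For CAST and WSB the counts were 10 and 0, against 22.6% and 20%, and for PWK and WSB they were 13 and 0, against 18.6% and 18.8%. The median difference was 0.23, 0.14 and 0.22 for the 3 pairs, against 0 for all genes. In either direction 16, 11 and 16 of the 24 members had an unadjusted p under 0.05, with no share of all genes given at that threshold. With runs as a random block, the 33 calls became 10, of which 5, 1 and 4 were in the 3 pairs in that order. The parents are shared between pairs, so the 3 counts are not independent.

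Snora73b in kidney had lowest, median and highest signals of 9.84, 10.06 and 10.81 in CAST and 10.79, 11.11 and 11.32 in PWK. In the F1 CASTxPWK they were 10.80, 11.27 and 11.47, and in PWKxCAST 10.87, 11.07 and 11.27. Both F1 crosses overlapped the PWK parent. Every PWKxCAST array was above every CAST array, and CASTxPWK overlapped CAST by its lowest array. Its difference from mid-parent was 0.55 ± 0.06 (limma adjusted p = 2.51e-11, and 4e-06 with runs as a random block) for CAST and PWK, 0.24 ± 0.06 (0.00119, and 0.0612) for CAST and WSB and 0.46 ± 0.06 (7.14e-09, and 0.000554) for PWK and WSB.

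Snora44, from Snhg12, had kidney signals of 6.53 to 8.25 in CAST and 6.92 to 8.02 in PWK, and of 7.51 to 8.87 and 7.54 to 8.79 in the F1 crosses CASTxPWK and PWKxCAST. It was 0.67 ± 0.12 above mid-parent (limma adjusted p = 5.16e-06, and 0.00265 with runs as a random block). Snora73a was higher by 0.35, 0.19 and 0.39 for the 3 pairs, of which the second was lost without WSBxCAST kidney replicate 2 (adjusted p = 0.0508). With runs as a random block its adjusted p was 0.0131, 0.235 and 0.00994. Snord35b was higher by 0.38, 0.22 and 0.45 (0.0236, 0.215 and 0.0197 with that block), and Snord15b by 0.52 for CAST and WSB (0.00982) and by 0.47 for PWK and WSB (0.0376). The call of Snord35b for CAST and WSB was lost without any 1 of 6 arrays, which were CASTxCAST kidney replicate 6, WSBxWSB kidney replicate 8, CASTxWSB kidney replicates 7 and 11 and WSBxCAST kidney replicates 2 and 6 (up to 0.0644).

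Snord73b was 0.42 above mid-parent in kidney for CAST and PWK and 0.66 for PWK and WSB (limma adjusted p with runs as a random block 0.163 and 0.0634). Snord33 was 0.38 above for CAST and WSB and 0.55 for PWK and WSB (0.218 and 0.0865 with that block). Snord35a was above by 0.49, 0.34 and 0.47 for the 3 pairs (0.0504, 0.202 and 0.0847 with that block). For CAST and WSB the call of Snord33 was lost without WSBxCAST kidney replicate 2 (0.0509), and that of Snord35a without this array or CASTxCAST kidney replicate 4 (up to 0.0611). Snora3, a box H/ACA RNA, was above by 0.21, 0.21 and 0.19, of which the last was lost without WSBxPWK kidney replicate 5 (adjusted p = 0.056). None of the Snora3 calls held with runs as a random block (0.124, 0.154 and 0.166). In kidney the mean of the brown fat markers differed between crosses, from 8.43 to 9.70, while that of the tubule markers lay between 12.55 and 12.70. The part of this in the members' differences was not tested.

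**Figure D3:**
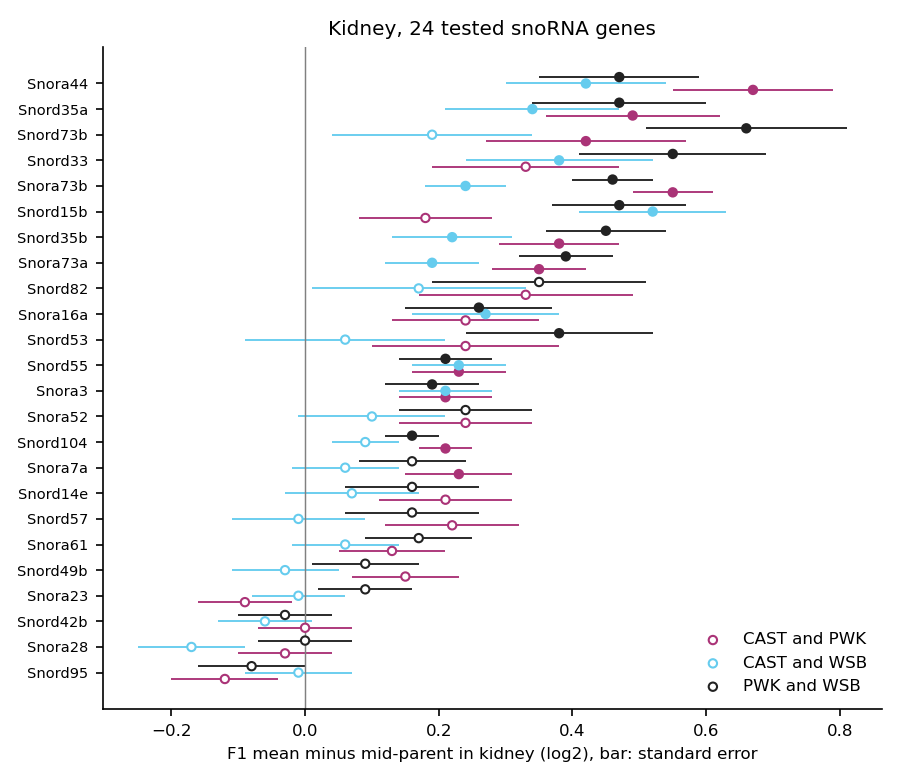
Difference of the F1 crosses from the mid-parent mean in kidney (log2) for the 24 tested members and the 3 strain pairs, with bars for the SE and filled points for an adjusted p under 0.05. All filled points lie above 0.

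The other tissues gave fewer calls against mid-parent. In brain the counts were 1 higher and 2 lower, 2 and 0, and 0 and 2 in the same order of pairs, where 18.9%, 37.1% and 10% of all genes were called in either direction. In liver they were 2 and 0, 2 and 0, and 0 and 0, against 18.7%, 25.3% and 17.0%, and with runs as a random block none of the 4 was called. In lung they were 2 and 1, 4 and 3, and 1 and 6, against 19.5%, 30.5% and 37.2%, and 5 of 17 were called with that block.

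Snora16a, from Snhg12, was below mid-parent in lung by 0.46 ± 0.06 (limma adjusted p = 1.26e-08, and 6.1e-05 with runs as a random block) for CAST and WSB. It was below by 0.32 ± 0.06 (5.07e-05, and 0.0206) for PWK and WSB. Snord53, a box C/D RNA in the gene Wdr43, was below mid-parent in brain for PWK and WSB by 0.68 ± 0.18 (0.0104, and 0.0396). Of the called mid-parent differences over the 4 tissues, each a member in 1 pair and tissue, 33 had a measured host. The host was called in the same direction for 14, in the opposite direction for 2 and not called for 17. All of the 14 came from the hosts Rpl13a (Snord33 and Snord35a), Rps3 (Snord15b) and Hspa8 (Snord14e), counted repeatedly over pairs and tissues. The shares of all genes called against mid-parent are those given above.

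Reciprocal F1 crosses share autosomal genotypes and differ in which strain was the mother, and so in the X chromosome of their males. In brain 0 of 21 members were called in the 3 pairs by limma, and 8 of 63 differences had an unadjusted p under 0.05. For these pairs, in the order used above, 0.151%, 0.779% and 0.248% of all genes were called. In kidney 0 of 24 were called, against 3.03%, 2.44% and 1.0% of all genes, and 4 of 72 differences had an unadjusted p under 0.05. In liver 1 was called, with 9.32%, 5.62% and 1.22% of all genes called, and 9 of 87 differences had an unadjusted p under 0.05. The shares of all genes are at the adjusted p, and none is given for the unadjusted counts.

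The liver call was Snord35b, with signals of 9.39 to 10.46 in CASTxPWK and 9.26 to 9.94 in PWKxCAST, and a difference of 0.44 ± 0.13 (limma adjusted p = 0.023). It was lost without CASTxPWK liver replicate 2 or 8 (up to 0.0551) and with runs as a random block (0.527).

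In lung there were more reciprocal calls than in the other tissues, among members and, for CAST and WSB, also among all genes. For CAST and PWK 1 member was higher and 0 lower of 25, for CAST and WSB 2 higher and 7 lower, and for PWK and WSB 0 higher and 6 lower, where 0.611%, 38.8% and 8.4% of all genes were called in either direction. The members' share was below that of all genes for CAST and WSB, and above it for the other pairs. With runs as a random block 4 of the 16 calls remained. These were Snora52, Snord33 and Snord35b for CAST and WSB, and Snora69 for PWK and WSB. The lung samples of these crosses also differed in markers of other cells. The mean of the lymphocyte markers was 8.17 ± 0.37 (SD) in CASTxWSB and 8.96 ± 0.28 in WSBxCAST, and 8.02 ± 0.43 in PWKxWSB and 8.66 ± 0.52 in WSBxPWK. The heart muscle markers had means of 11.02 and 10.93, and of 10.96 and 10.25, in the same crosses. The part of these markers in the members' differences was not tested.

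Snord57, in an intron of the box C/D core gene Nop56, had lung signals of 8.57 to 10.04 in CASTxWSB and 9.31 to 10.50 in WSBxCAST. It was lower in CASTxWSB by 0.75 ± 0.19 (limma adjusted p = 0.002), and 0.0748 with runs as a random block. Snord35b had lung signals of 7.67 to 8.67 and 8.04 to 8.90 in these crosses and was lower in CASTxWSB by 0.43 ± 0.10 (0.000906, and 0.0322 with that block). In PWKxWSB against WSBxPWK it was lower by 0.47 ± 0.11 (0.0052, and 0.402).

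Snora69, a box H/ACA RNA in the X-linked ribosomal protein gene Rpl39, passed the filter in lung only. There it was tested, and it differed between strains and between reciprocal crosses. Among inbred mice its lowest, median and highest lung signals were 6.40, 6.98 and 7.27 in CAST, 5.58, 5.97 and 6.32 in PWK, and 6.35, 6.72 and 7.03 in WSB. PWK lay below both other strains without overlap, by 0.96 ± 0.10 (limma adjusted p = 6.73e-14) from CAST and 0.77 ± 0.10 (3.24e-11) from WSB. The host Rpl39 differed by 0.75 for CAST against PWK and -0.70 for PWK against WSB.

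Between reciprocal crosses Snora69 differed by 0.48 ± 0.11 (limma adjusted p = 0.00599) for CASTxPWK against PWKxCAST and by -0.62 ± 0.10 (1.95e-05) for PWKxWSB against WSBxPWK. The first was lost without CASTxPWK lung replicate 1 (0.0527) and with runs as a random block (0.818), and the second had 0.0441 with that block. In both the cross with a PWK mother was the lower one, and Rpl39 differed by 0.35 and -0.49.

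The sexes are set out apart because a male has its single X chromosome from its mother. Among males the lung signal of Snora69 was 6.30 to 7.36 in CASTxPWK (n = 4) and 5.60 to 6.13 in PWKxCAST (n = 5). It was 5.56 to 5.88 in PWKxWSB (n = 4) and 6.65 to 6.81 in WSBxPWK (n = 5). In males the crosses did not overlap within either pair, and males with a PWK mother were the low ones. Among females the ranges were 6.11 to 6.53 and 6.28 to 6.86, and 5.80 to 6.51 and 6.10 to 6.57, and these overlapped. In kidney and brain, below the filter, the male ranges were also apart, lower with a PWK mother. Kidney males had 5.68 to 5.99 in CASTxPWK and 5.06 to 5.67 in PWKxCAST. They had 5.2 to 5.36 in PWKxWSB and 5.6 to 6.03 in WSBxPWK. Brain males had 5.41 to 5.64, 5.05 to 5.35, 4.96 to 5.29 and 5.3 to 5.88 in these crosses. In liver the male ranges overlapped in both pairs. Female ranges overlapped in kidney, brain and liver. The split by sex was made after the values were seen and carries no test.

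**Figure D4:**
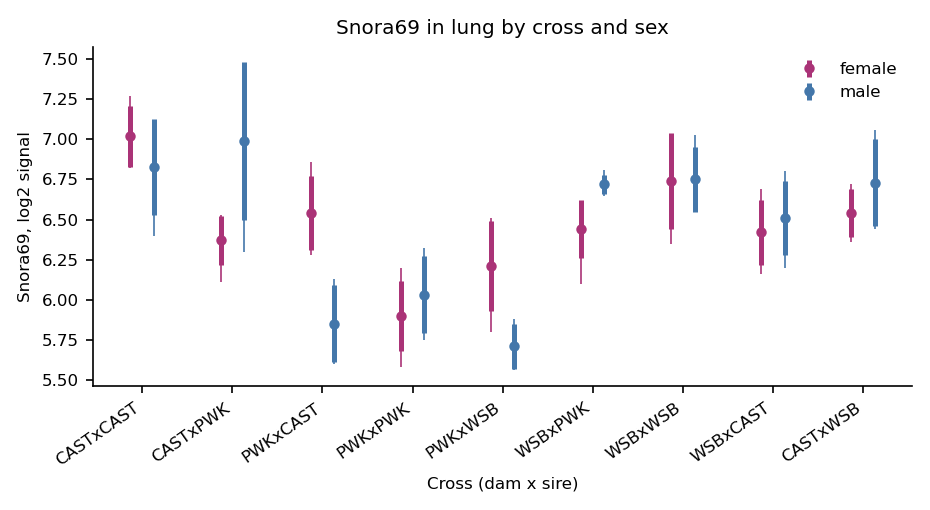
Lung log2 signal of Snora69 by cross and sex, with the mean, SD and lowest to highest array. Males of PWKxCAST and PWKxWSB sit with the PWK inbred animals, and males of CASTxPWK and WSBxPWK sit above them.

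The members varied more from array to array than most genes. The residual SD within cross and sex groups had a median over the 56 members of 0.27 in brain, 0.28 in kidney and 0.36 in liver, with 0.27 in lung, against 0.16, 0.18, 0.23 and 0.17 for all genes. The measured host genes had medians of 0.14, 0.14, 0.13 and 0.12. Of the 56 members, 53, 53, 55 and 50 were above the median of all genes, and 33, 33, 39 and 25 were among the 10% of genes with the widest spread. Among members that passed the filter the medians were 0.28, 0.29, 0.37 and 0.25, against 0.14, 0.16, 0.19 and 0.15 for all tested genes. MicroRNA genes, another class of small RNA, had medians of 0.22, 0.20, 0.27 and 0.22. Among tested microRNA genes they were 0.25, 0.19, 0.29 and 0.24, close to the tested members in brain and lung.

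The widest members were Snord33 in brain, with a residual SD of 0.56, Snord82 in kidney with 0.55, Snord73b in liver with 0.61 and Snord14e in lung with 0.51. The narrowest were Snora36b in brain, kidney and lung, with 0.11, 0.14 and 0.12, and Snord104 in liver with 0.10. Snora36b, which lies in the gene Rab3gap2, was below the filter in all 4 tissues. Its means were 3.23, 3.32 and 3.06 in brain, kidney and lung. Snord104, in a non-coding gene, had the highest mean of the members in liver, at 12.85.

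**Figure D5:**
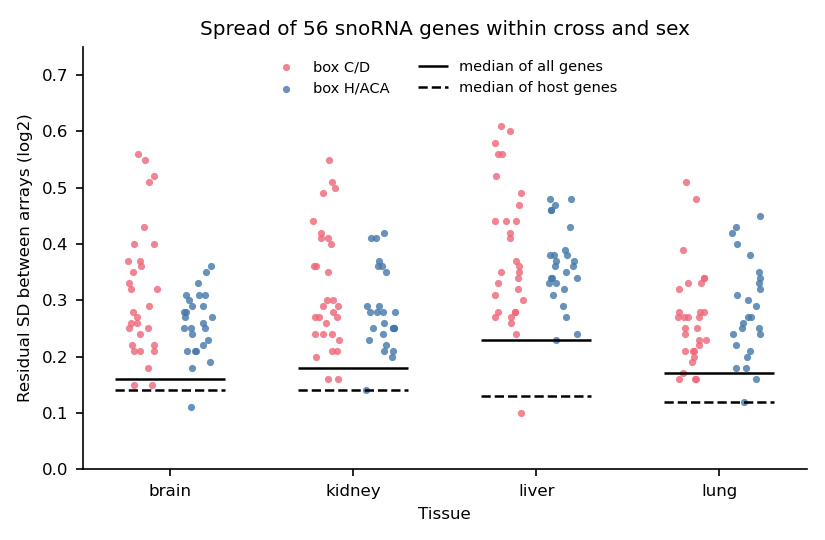
Residual SD (log2) of each member within cross and sex groups, by tissue and box family, with the median of all genes as a solid line and that of the host genes as a dashed line. In each tissue at least 50 of the 56 members lie above the solid line.

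The members' residuals were also compared with each other. The mean correlation between pairs of members, over arrays within cross and sex groups, was 0.15 in brain, 0.19 in kidney and 0.27 in liver, with 0.17 in lung, against 0.0079, 0.0068, 0.0054 and 0.01 over all genes and 0.15, 0.13, 0.17 and 0.16 over the measured host genes. Among the tested genes of each kind it was 0.36, 0.38, 0.32 and 0.17 for members and 0.20, 0.035, 0.065 and 0.24 for microRNA genes, so that in lung the microRNA genes had the higher value. All pairs share the same arrays, and no test was made. The 12 pairs within the same host had medians of 0.27, 0.48, 0.49 and 0.30, and pairs in different hosts 0.13, 0.16, 0.26 and 0.16. Snord33 and Snord35a, both in Rpl13a, correlated at 0.83, 0.85, 0.75 and 0.55, and Snora75 and Snord82, both in Ncl, at -0.14 to 0.02.

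Single arrays stood out. On liver array PWKxCAST replicate 10, 55 of the 56 members were above their group mean, by 0.74 on average. The same animal deviated by 0.07 in brain, 0.15 in kidney and -0.11 in lung. In the other tissues the highest array deviated by 0.37 in brain (WSBxCAST replicate 10), 0.36 in kidney (CASTxPWK replicate 1) and 0.31 in lung (PWKxPWK replicate 9). The lowest liver array was PWKxCAST replicate 11, at -0.43, with 7 of the 56 members above their group mean. The lowest in kidney was PWKxWSB replicate 8, at -0.32, in lung CASTxPWK replicate 2, at -0.24, and in brain WSBxWSB replicate 10, at -0.24, which had the lowest residual of all brain arrays for 13 members.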

How the data were processed

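The deposited values are log2 signals per transcript cluster, which the authors made with RMA in Affymetrix Expression Console, per the submitters' processing notes. RMA corrects background, normalises arrays by quantiles and summarises probes. The array annotation and which arrays were normalised together are not given in the sources used here. Per the labels' protocols, total RNA was purified from tissue powder and labelled with biotin.

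Probes were named through the platform annotation: of 35556 clusters, 21218 had 1 symbol, 1881 several and 12457 none, and 21185 of those with 1 symbol were matched to RefSeq genes (GRCm38.p6). The cluster with the highest mean stood for a gene. The host was the shortest annotated gene that contains the member, without regard to strand, which the gene table lacks; the rule written at the start asked for the same strand.

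Differences were tested with limma 3.58.1 (R 4.3.3; a linear model, contrasts and moderated statistics with a trend) with 18 cross-by-sex means fitted per tissue, or 36 cross-by-tissue means over all arrays, with Benjamini-Hochberg adjustment over the 11292 genes at or above the 40th percentile. The scripts were tested on simulated data. Runs are animals of a cross whose numbers are neighbours (27 runs, 3 of them with 1 animal). Labels do not say that a run is a litter. Their within-block correlation was 0.0874 (brain), 0.252 (kidney), 0.221 (liver) and 0.209 (lung). Replicates are different animals, numbered within each cross and tissue, so the same number in another tissue can be another animal. The number of arrays limits the precision. P-values measure the spread between these animals. Alternatives were the filter, array weights, centring, runs or the animal as a block, and leaving out arrays.

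The members and lists were chosen with earlier results of these data known. Named members were, per tissue, the called ones with the 3 largest and 3 smallest tissue differences, the extremes of each cross contrast, the 2 widest and 2 narrowest residual SDs, and the 3 highest and 3 lowest means over tissues. Snora23, Snora28, Snora70, Snora75, Snord118, Snord15a, Snord22, Snord49b, Snord55 and Snord61 lie outside this rule, and they and the split of Snora69 by sex were added after values were seen.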

Additional observations from a re-analysis of the deposited data

Results flagged for a closer look

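Strain differences of some members were not the same in the 4 tissues, by an F-test of the difference itself that was chosen after seeing the data (limma adjusted p in parentheses; the range is the highest less the lowest of the 4 tissue differences, in log2 units). It called 8, 8 and 6 of 21 members for CAST less PWK, CAST less WSB and PWK less WSB. Over all genes tested it called 66.6%, 71.7% and 66.5%, so the members' share was the lower one. The widest range was that of Snora61 for CAST less WSB, at 1.23 (6.17e-13), from -1.27 in liver to -0.04 in lung. In the same contrast the ranges were 1.02 for Snord33 (0.00807), 0.83 for Snora52 (6.42e-05), 0.61 for Snora23 (0.0122), 0.57 for Snord49b (0.037), 0.55 for Snord104 (1.07e-05), 0.48 for Snora3 (0.00925) and 0.48 for Snord55 (0.00165). For CAST less PWK they were 0.92 for Snora73a (0.000285), 0.85 for Snora52 (1.1e-05), 0.84 for Snord57 (0.00282), 0.76 for Snora73b (0.0183), 0.69 for Snora16a (0.0035), 0.65 for Snora3 (0.000821), 0.57 for Snora61 (0.00997) and 0.35 for Snord104 (0.0368). For PWK less WSB they were 1.16 for Snord33 (0.0012), 0.77 for Snord57 (0.0139), 0.69 for Snora61 (0.000603), 0.62 for Snora16a (0.0297), 0.50 for Snord55 (0.0016) and 0.46 for Snord42b (0.0232). Signals of named members were also looked at for a single array far from the rest, in 20 sets of up to 10 arrays, and 0 were found. The other 35 of the 55 sets held over 10 arrays and were not looked at in this way. Among the sets of over 10 arrays was Snora52 in WSB kidney, with its high array. The 55 sets are not the 36 cross-by-tissue groups counted once each.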

How the results depend on the processing

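Counts of called members that moved by over 1.5 times were as follows. Between tissues, the filter at the 60th percentile left 0 calls in brain, 1 in liver and 1 in lung, centring gave 8 (brain), 0 (kidney), 15 (liver) and 10 (lung), and a size of 0.5 gave 16, 10, 18 and 16. Between inbred strains, no filter gave 53 (brain), 51 (kidney) and 64 (lung), the 60th percentile gave 11, 7, 15 and 11 in brain, kidney, liver and lung, and runs as a random block gave 24 in liver. Between reciprocal crosses, array weights gave 3 in brain, 2 in kidney and 8 in liver, centring gave 0 in liver, runs as a block gave 0 in liver and 4 in lung, and the 60th percentile gave 6 in lung. Against mid-parent, no filter gave 14 in brain, the 60th percentile gave 4 in brain, 14 in kidney and 3 in lung, array weights gave 14 in brain and 11 in liver, centring gave 7 in liver, and runs as a block gave 10 in kidney, 0 in liver and 5 in lung. The 60th percentile tests fewer members and no filter tests more; the cause of the others was not tested.

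Leaving out 1 array at a time gave 18 to 25, 28 to 32, 32 to 42 and 34 to 41 calls between inbred strains in brain, kidney, liver and lung, 0 to 2, 0 to 1, 0 to 2 and 12 to 18 between reciprocal crosses, and 5 to 9, 28 to 38, 3 to 7 and 14 to 21 against mid-parent. The mid-parent count in liver was 7 without CASTxCAST liver replicate 1 or 10, and the reciprocal count in brain was 2 without CASTxWSB brain replicate 1 or WSBxCAST brain replicate 10. Of 102 named differences, 74 kept their call without any 1 array, and of all 127 called differences between inbred strains 94 did. Runs as a random block ended the call of 20 of 52 named differences and reversed none. With the replicate block, the animal as a random block across tissues, the tissue counts were 2, 1, 8 and 3, as without it.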
